A study of Mus musculus with 12 samples.

Results

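The SLAM family receptors and their adaptor SAP were followed in splenic CD4+ T cells of NOD and B6.H2g7 mice. The members were the receptor genes Slamf1, Slamf6, Cd84, Ly9, Cd48 and Slamf7 and the adaptor gene Sh2d1a, 7 genes in all. Every probe set that the platform annotation assigns to exactly 1 gene, with that gene among these, was taken. These 7 of 18193 measured genes were read by 12 of the 45037 probe sets tested: 3 each for Slamf1 and Slamf6, 2 for Cd84 and 1 for each of the other genes. Gene expression was measured on 12 Affymetrix arrays, 3 in each of 4 groups, and each array held RNA pooled from the spleens of 3 mice aged 6 weeks. The groups were regulatory T cells (Treg) of NOD mice, conventional T cells (Tconv) of NOD mice, Treg of B6.H2g7 mice and Tconv of B6.H2g7 mice. NOD is an inbred strain with spontaneous autoimmune diabetes. B6.H2g7 animals are B6 congenics with the H2g7 haplotype, so both strains carry that MHC, and are called B6g7 here. Treg cells were sorted as CD4+ cells with high CD25 and Tconv cells as CD4+ cells without CD25, and CD8a, CD11b, CD69 and B220 were excluded from both. The labels give the share of Foxp3+ cells as 89%, 95% and 95% in the NOD Treg pools and 94%, 96% and 96% in the B6g7 Treg pools.

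SLAM receptors are immunoglobulin-superfamily proteins of leukocytes, and most of them bind their own kind on a neighbouring cell. Tyrosine motifs in their tails bind SAP, a small protein made up of an SH2 domain, which brings in the kinase Fyn. SAP is needed for the development of NKT cells and for stable contact between follicular helper T cells and B cells, and its loss causes X-linked lymphoproliferative disease in humans. CD48 differs from the other members in that it is held in the membrane by a lipid anchor and binds CD2 and CD244. In the RefSeq table the 6 receptor genes lie on mouse chromosome 1 in the order Ly9, Slamf7, Cd48, Slamf1, Cd84, Slamf6, and Sh2d1a lies on the X chromosome. The 8 other RefSeq genes between the outermost receptor genes had no probe set of their own.

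Slamf1 and Slamf6 carried the differences described below, so the sequences around their annotated starts are shown. Each window holds 300 bases, most of them before the start, from RefSeq on GRCm38.p6, 5′ to 3′ on the plus strand. That of Slamf1 lies at chr1:171766882-171767181 and that of Slamf6 at chr1:171917212-171917511. Capitals mark matches on either strand to the E-box CANNTG or the Ets motif CAGGAAG.
Slamf1 promoter: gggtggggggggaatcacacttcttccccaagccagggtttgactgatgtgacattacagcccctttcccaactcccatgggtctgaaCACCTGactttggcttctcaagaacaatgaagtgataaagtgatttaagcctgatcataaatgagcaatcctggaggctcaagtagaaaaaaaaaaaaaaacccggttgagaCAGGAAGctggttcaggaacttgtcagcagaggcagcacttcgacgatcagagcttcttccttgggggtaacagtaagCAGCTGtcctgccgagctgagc
Slamf6 promoter: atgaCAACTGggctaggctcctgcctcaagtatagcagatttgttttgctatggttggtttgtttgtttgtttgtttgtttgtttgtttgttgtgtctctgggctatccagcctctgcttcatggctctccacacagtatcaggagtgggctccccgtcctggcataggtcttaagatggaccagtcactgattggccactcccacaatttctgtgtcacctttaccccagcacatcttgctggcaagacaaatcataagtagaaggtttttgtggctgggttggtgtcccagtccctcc
The Slamf1 window held 2 E-boxes and 1 Ets match, and the Slamf6 window held 1 E-box. An E-box was present in 72.3% of 32851 promoter windows of this length, and the Ets motif in 13.3%. The forkhead core TGTTTAC, present in 3.65% of all windows, and the STAT motif TTCNNNGAA, present in 8.30%, had no match in the 5 members with a window. These are descriptions of the reference sequence, and binding was not measured.

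The labels of the sorted cells matched the Treg markers. Foxp3, Il2ra, Ikzf2 and Ctla4 were all higher in Treg than in Tconv of both strains. Il2ra was higher by 5.07 in log2 in NOD and 5.34 in B6g7. Cd4 was lower in Treg averaged over strains (-0.40, limma adjusted p = 0.0262). Ikzf2 was higher in NOD Tconv than in B6g7 Tconv (0.76, limma adjusted p = 0.0492). Foxp3, the lineage transcription factor of regulatory cells, averaged 11.05 ± 0.33 in NOD Treg against 5.91 ± 0.34 in NOD Tconv, and 11.0 ± 0.27 in B6g7 Treg against 5.68 ± 0.14 in B6g7 Tconv on the log2 scale (SD, n = 3 each). Array medians lay between 83.9 and 88.6 intensity units, and arrays of 1 group correlated with r between 0.983 and 0.996. As a measure of RNA length, the actin control read at its 3' end minus that at its 5' end ran from 2.66 to 4.70 in log2, with larger values for shorter RNA. It was lowest in the array numbered 1 of NOD Treg, NOD Tconv and B6g7 Treg. Of markers of other cells, 1 of 7 B cell genes (Cd79b), 1 of 5 plasma cell genes (Xbp1) and 1 of 5 NK cell genes (Eomes) were higher in Treg than in Tconv of both strains. None of the 2 CD8, 6 myeloid, 5 dendritic cell and 4 platelet or erythroid genes was called in either strain. In RNA from sorted pools, fewer cells of a type and less RNA per cell cannot be told apart.

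**Figure D1:**
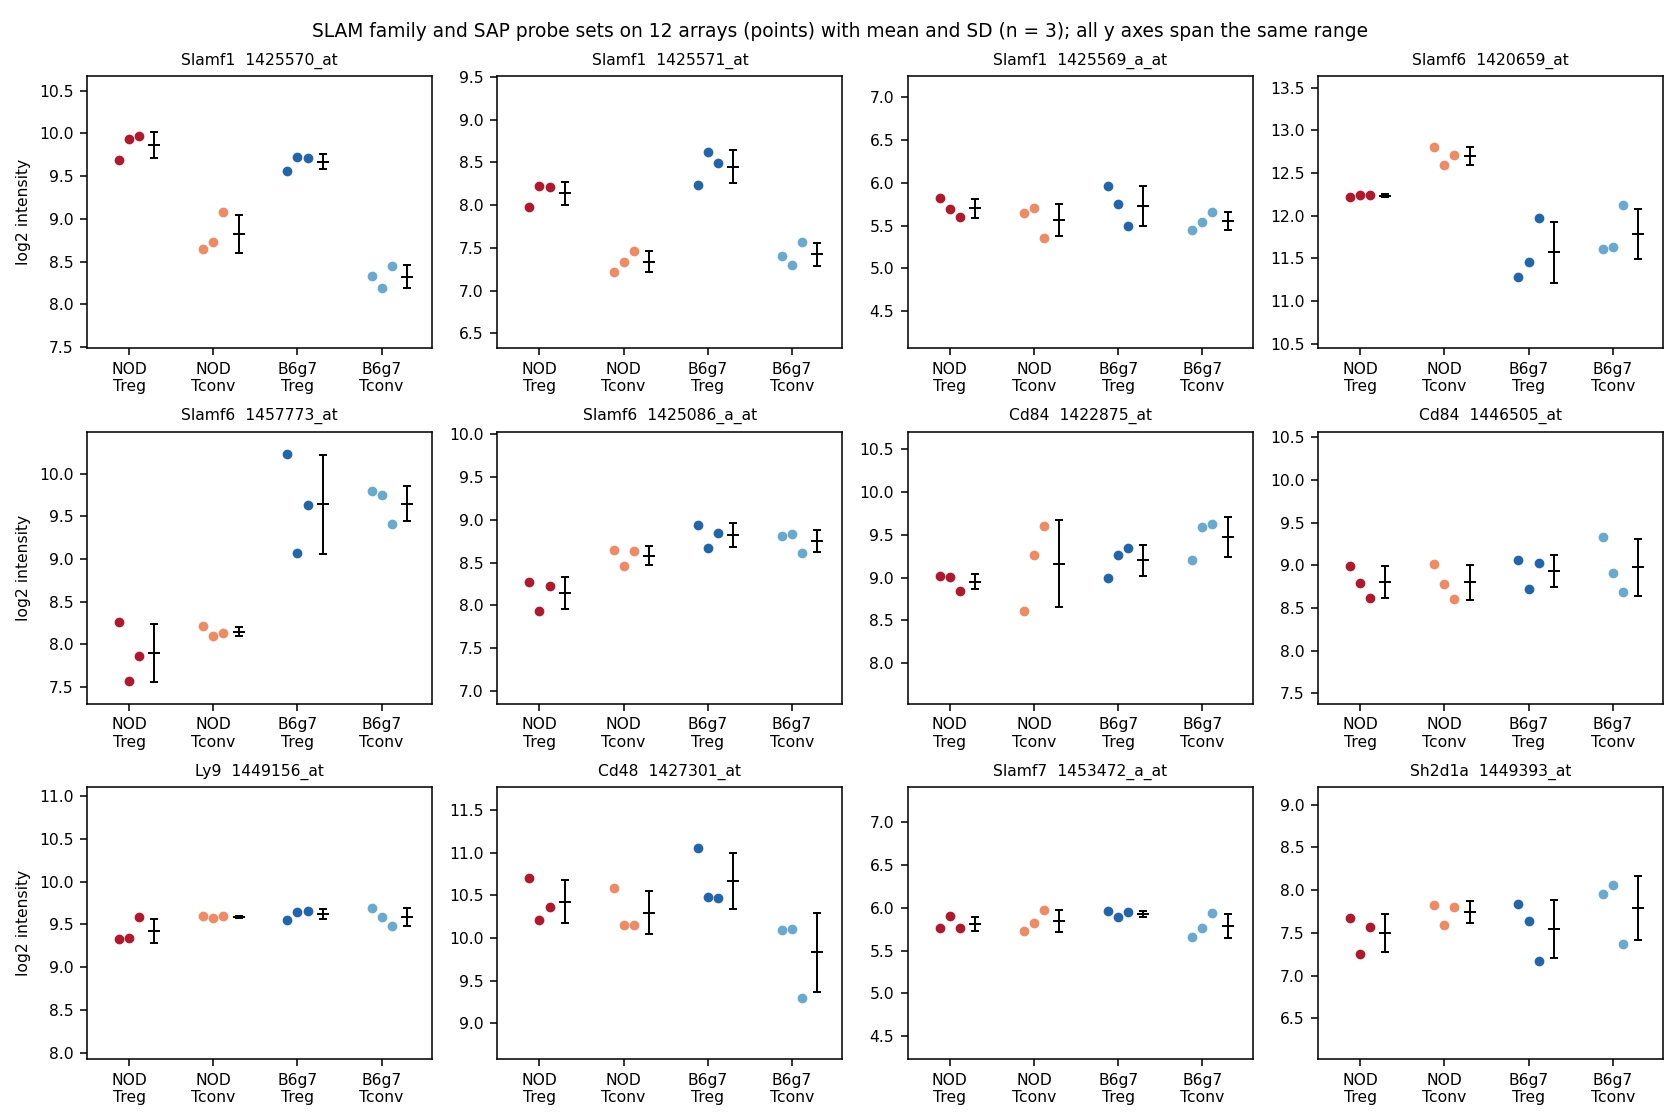
Log2 intensity of each of the 12 member probe sets on each array (points) with the group mean and SD (bars), for NOD Treg, NOD Tconv, B6g7 Treg and B6g7 Tconv. The y axes of all panels span the same number of log2 units, so heights compare within and between panels as differences only. Slamf1 1425570_at and 1425571_at are higher in Treg of both strains, and Slamf6 1420659_at and 1457773_at separate the strains in opposite directions.

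Slamf1, which encodes CD150, a receptor that binds itself and signals through SAP, was higher in Treg than in Tconv of both strains. Its brightest probe set, 1425570_at, had log2 intensities of 9.69, 9.93 and 9.97 in NOD Treg against 8.65, 8.73 and 9.08 in NOD Tconv. In B6g7 it had 9.56, 9.72 and 9.71 in Treg against 8.33, 8.18 and 8.45 in Tconv. Every Treg array thus stood above every Tconv array, also across strains. The Treg minus Tconv change was 1.05 ± 0.12 in NOD (2.06-fold, SE, n = 3 per group, limma with Benjamini-Hochberg adjusted p = 0.000288). In B6g7 it was 1.34 ± 0.12 (2.54-fold, adjusted p = 3.14e-05).

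A second Slamf1 probe set, 1425571_at, gave the same direction. Its levels were 7.98, 8.22 and 8.21 in NOD Treg against 7.22, 7.33 and 7.46 in NOD Tconv, and 8.24, 8.62 and 8.49 in B6g7 Treg against 7.40, 7.30 and 7.57 in B6g7 Tconv. The change was 0.80 ± 0.12 in NOD (1.74-fold, adjusted p = 0.00182) and 1.03 ± 0.12 in B6g7 (2.04-fold, adjusted p = 0.000233). The third, 1425569_a_at, had group means between 5.55 and 5.73, close to the 25th percentile of all probe set means at 5.28, under which a level is called dim here. There the change was 0.13 in NOD (adjusted p = 0.871) and 0.18 in B6g7 (adjusted p = 0.705), and the arrays of Treg and Tconv overlapped. The annotation traces all 3 of these probe sets to the same sequence record.

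These were the only member calls between Treg and Tconv within a strain. In NOD 2 of 12 member probe sets were called, both higher, against 3.20% of all probe sets called in that comparison and 2.09% called higher. In B6g7 it was again 2 of 12, both higher, against 3.37% of all called and 2.04% called higher. Averaged over the strains 2 of 12 were called, both higher, against 5.84% of all called and 3.45% called higher, with Slamf1 at 1.19 ± 0.09 (2.29-fold, adjusted p = 1.99e-06) and 0.91 ± 0.09 (1.88-fold, adjusted p = 1.59e-05). The median change of the 12 was -0.10 in NOD, against -0.02 over all probe sets, and 0.05 in B6g7, against -0.00056 over all. The Treg and Tconv arrays did not overlap for 4 of the 12 in NOD and 3 of the 12 in B6g7, where 17.0% and 15.1% of all probe sets showed no overlap. Over both strains together 2 of 12 did not overlap, against 3.65% of all.

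Single markers of other cells moved with Treg as Slamf1 did, and their part in the Slamf1 change was not tested. The log2 of the summed intensities of the 5 plasma cell genes was 10.76 to 10.94 in NOD Treg against 10.05 to 10.18 in NOD Tconv. In B6g7 it was 10.57 to 10.81 in Treg against 10.08 to 10.33 in Tconv. For the 5 NK cell genes it was 9.42 to 9.79 in NOD Treg against 8.95 to 9.0 in NOD Tconv. In B6g7 the NK cell value was 8.91 to 9.31 in Treg against 8.71 to 9.03 in Tconv, where the populations overlapped. The brightest gene weighs most in such a sum, here Xbp1 and Eomes. Xbp1 (NOD 1.15, B6g7 0.83) and Eomes (NOD 1.67, B6g7 0.81) were the only called genes of these lists, whose median Treg minus Tconv changes were 0.00 in NOD and 0.11 in B6g7 for plasma cells and -0.04 in both strains for NK cells. The log2 of the summed intensities of the 7 B cell genes overlapped between the populations. It was 9.53 to 9.66 in NOD Treg against 9.53 to 9.72 in NOD Tconv, and 9.44 to 9.70 in B6g7 Treg against 9.41 to 9.66 in B6g7 Tconv. The Slamf1 calls by 1425570_at and 1425571_at held with the actin difference as a covariate and without the 4 arrays numbered 1.

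**Figure D2:**
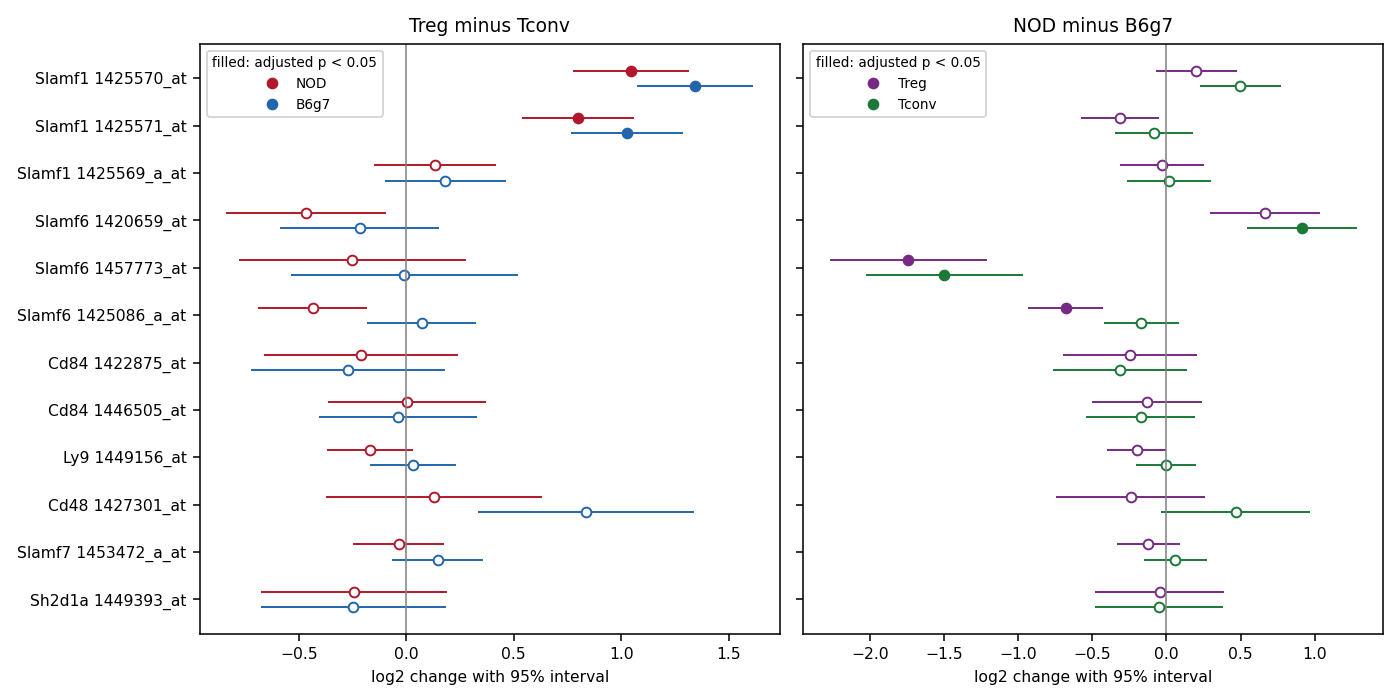
Log2 change of each member probe set with its 95% confidence interval, Treg minus Tconv in NOD and in B6g7, and NOD minus B6g7 in Treg and in Tconv. Filled points passed an adjusted p of 0.05. Slamf1 is alone in passing between Treg and Tconv, and Slamf6 is alone in passing between the strains within a population in the fit shown. Under some other settings Slamf1 passes there as well.

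The strain differences lay in Slamf6, which encodes Ly108, a self-binding SAP-coupled receptor of T and B cells whose transcripts are alternatively spliced. Its probe sets pointed in opposite directions, which was known when the genes were chosen. The limma p-values of its strain differences, here and below, are therefore a description and not independent evidence. The brightest probe set, 1420659_at, had log2 intensities of 12.22, 12.24 and 12.25 in NOD Treg against 11.28, 11.46 and 11.97 in B6g7 Treg. In Tconv it had 12.80, 12.59 and 12.71 in NOD against 11.61, 11.63 and 12.12 in B6g7. All 6 NOD arrays were above all 6 B6g7 arrays. NOD minus B6g7 was 0.66 ± 0.17 in Treg (1.58-fold, adjusted p = 0.0595) and 0.91 ± 0.17 in Tconv (1.88-fold, adjusted p = 0.00895). In the NOD and B6g7 Treg arrays, deviations from the group means correlated above 0.1 at every replicate number. With a replicate block, which spans all 12 arrays and so also ties groups without such correlation, the Treg difference passed (adjusted p = 0.00997). It also passed with array weights (0.74, adjusted p = 0.00179) and with the actin covariate (0.61, adjusted p = 0.0222). With 1 array left out it passed in 2 of 12 fits. These were without B6g7 Treg replicate 3, the highest of its group (0.86, adjusted p = 0.00752), and without B6g7 Tconv replicate 3 (adjusted p = 0.028). The other 10 fits gave values down to 0.52 and adjusted p up to 0.21. The Treg difference did not pass with quantile normalization, with the arrays of that comparison alone or without the 4 arrays numbered 1. The Tconv call was lost without B6g7 Tconv replicate 1 (0.82, adjusted p = 0.0509) or replicate 2 (0.84, adjusted p = 0.0541). Without the 4 arrays numbered 1 it was 0.77 (adjusted p = 0.0752).

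Probe set 1457773_at of the same gene was lower in NOD. It read 8.26, 7.57 and 7.87 in NOD Treg against 10.23, 9.07 and 9.63 in B6g7 Treg, and 8.21, 8.10 and 8.14 in NOD Tconv against 9.79, 9.75 and 9.41 in B6g7 Tconv. Again no NOD array overlapped a B6g7 array. NOD minus B6g7 was -1.74 ± 0.24 in Treg (3.34-fold lower, adjusted p = 0.000969) and -1.50 ± 0.24 in Tconv (2.82-fold lower, adjusted p = 0.0032).

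The remaining Slamf6 probe set, 1425086_a_at, was lower in NOD Treg, and the Tconv difference did not pass. Its levels were 8.27, 7.93 and 8.23 in NOD Treg against 8.95, 8.67 and 8.85 in B6g7 Treg, and 8.65, 8.45 and 8.64 in NOD Tconv against 8.81, 8.83 and 8.61 in B6g7 Tconv. The Treg arrays of the strains were separate, while the Tconv arrays overlapped. The difference was -0.68 ± 0.12 in Treg (1.60-fold lower, adjusted p = 0.00478) and -0.17 ± 0.12 in Tconv (adjusted p = 0.715). The annotation traces each of the 3 Slamf6 probe sets to a sequence record of its own. Where their probes lie in the transcripts, and whether NOD and B6g7 differ in sequence there, was not examined.

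Single activation and other-cell markers also differed between the strains, and their part in the Slamf6 differences was not tested. Of 4 measured activation or memory genes Cd69, an early activation marker whose protein the sort excluded, was higher in NOD in Treg (0.75 ± 0.15, adjusted p = 0.0153) and in Tconv (1.28 ± 0.15, adjusted p = 0.000289). The other 3, Cd44, Ccr7 and Cxcr3, were not called between the strains. Of the other-cell markers only Eomes, 1 of 5 NK cell genes, was called, higher in NOD Treg than in B6g7 Treg (0.93 ± 0.20, adjusted p = 0.0212). The median difference of those 5 NK cell genes in Treg was -0.05. The log2 of the summed intensities of the 4 activation or memory genes was 12.18 to 12.59 in NOD Treg against 11.89 to 12.27 in B6g7 Treg. In Tconv it was 12.54 to 12.93 in NOD against 11.79 to 12.13 in B6g7. Cd69, the brightest of them, weighs most in this sum.

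The Slamf6 disagreement between strains was known when the genes were chosen, so the strain counts here are a description and not evidence of enrichment. Between the strains 2 of 12 member probe sets were called in Treg, both lower in NOD, against 3.26% of all called and 1.66% called lower. In Tconv 2 were called, 1 in each direction, against 2.96% of all called, 1.31% higher and 1.65% lower. Averaged over both populations 4 of 12 were called, 2 higher and 2 lower in NOD, against 5.50% of all called, 2.73% higher and 2.77% lower. These were Slamf6 1420659_at (0.79 ± 0.12, 1.73-fold, adjusted p = 0.00117), 1457773_at (-1.62 ± 0.17, 3.07-fold lower, adjusted p = 5.11e-05) and 1425086_a_at (-0.42 ± 0.08, adjusted p = 0.00687), and Slamf1 1425570_at (0.35 ± 0.09, 1.27-fold, adjusted p = 0.036). The Slamf1 call was lost with quantile normalization (0.34, adjusted p = 0.12). It was also lost without any single array other than replicate 1 of NOD Treg, replicate 1 of NOD Tconv and replicate 3 of B6g7 Tconv, with values between 0.29 and 0.37 and adjusted p between 0.055 and 0.102. The strains' arrays did not overlap for 4 of 12 in Treg, against 13.7% of all probe sets, and for 4 of 12 in Tconv, against 16.9%. Over both populations together 2 of 12 did not overlap, against 3.41% of all.

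The disagreement between probe sets was measured within arrays, as the log2 level of 1 probe set minus that of another of the same gene. For Slamf6, 1420659_at minus 1457773_at was 3.96, 4.67 and 4.38 in NOD Treg against 1.06, 2.40 and 2.34 in B6g7 Treg. In Tconv it was 4.59, 4.49 and 4.57 in NOD against 1.82, 1.89 and 2.71 in B6g7. The lowest NOD array thus lay above the highest B6g7 array in both populations. NOD minus B6g7 averaged 2.41. It was 1.21 for 1420659_at minus 1425086_a_at and -1.20 for 1457773_at minus 1425086_a_at. That Slamf6 probe sets disagree between strains was known when the genes were chosen, so these values are given as a description, without a test.

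Slamf1 showed a smaller disagreement of the same kind. The difference 1425570_at minus 1425571_at was 1.71, 1.72 and 1.76 in NOD Treg against 1.32, 1.10 and 1.22 in B6g7 Treg, and 1.43, 1.40 and 1.62 in NOD Tconv against 0.93, 0.89 and 0.88 in B6g7 Tconv. NOD exceeded B6g7 by 0.55 (two-sided exact permutation test, p = 0.005, the smallest that 400 arrangements can give). The adjusted p was 0.00875 over all 7 pairs of probe sets, which include the Slamf6 pairs known to disagree when the genes were chosen. It was 0.02 over the 4 pairs outside Slamf6, an adjustment chosen after seeing the data. In the single fits 1425570_at was 0.20 higher in NOD Treg than in B6g7 Treg (adjusted p = 0.715), and 1425571_at was at -0.31 ± 0.12 (adjusted p = 0.311), with separate arrays. In Tconv the 2 values were 0.50 ± 0.12 (adjusted p = 0.0557) and -0.08. The first passed with array weights (0.60, adjusted p = 0.00487), with the actin covariate (0.55, adjusted p = 0.00234) and without NOD Treg replicate 1 (adjusted p = 0.0483). In Treg 1425571_at passed with array weights (-0.41, adjusted p = 0.0267) and with the actin covariate (-0.37, adjusted p = 0.0173). Of those 4 pairs this was the only one to pass, and Slamf1 1425570_at minus 1425569_a_at did not (0.36, exact p = 0.04, adjusted p = 0.08).

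Between Treg and Tconv the Slamf6 pairs did not pass, with adjusted exact permutation p between 0.53 and 0.78. All 3 Slamf1 pairs did (exact p = 0.005, adjusted p = 0.0117 each), by 0.28, 1.04 and 0.75, so the size of the Slamf1 change depended on the probe set read. Among 9010 genes with several probe sets, 71 of 309 genes with at least 2 called probe sets were called in both directions between NOD and B6g7 averaged over populations, a share of 23.0%. Slamf6 was 1 of these. Between Treg and Tconv averaged over strains the count was 0 of 401 genes.

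**Figure D3:**
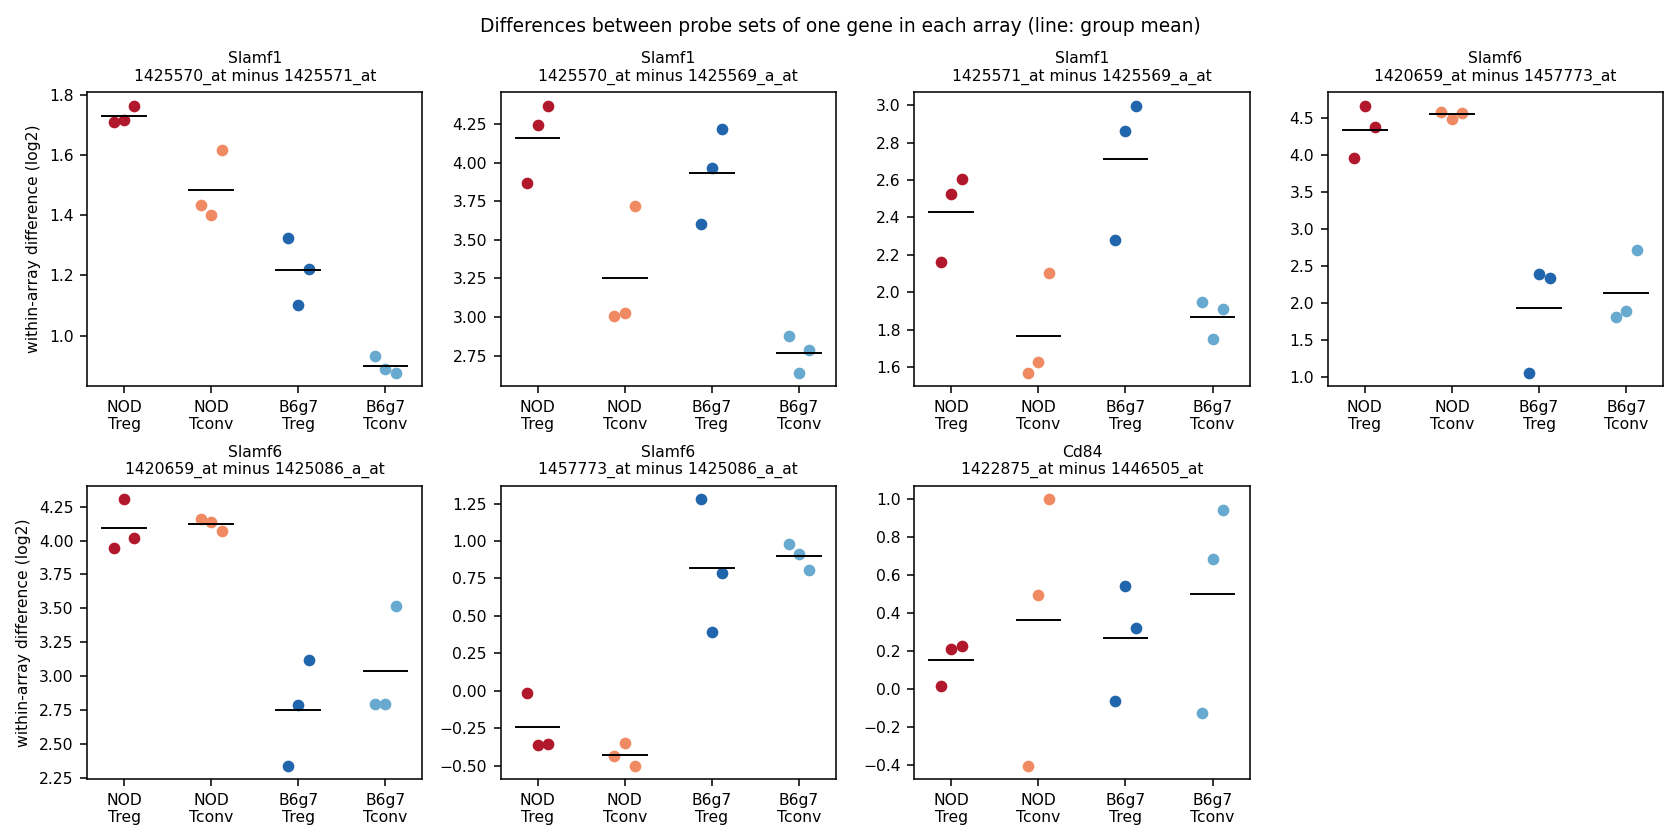
Within-array difference in log2 intensity between probe sets of the same gene, for the 7 pairs in Slamf1, Slamf6 and Cd84, with each array as a point and the group mean as a line, in NOD Treg, NOD Tconv, B6g7 Treg and B6g7 Tconv. Slamf6 1420659_at minus 1457773_at lies between 3.96 and 4.67 on the NOD arrays and between 1.06 and 2.71 on the B6g7 arrays.

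Slamf6 values between Treg and Tconv did not pass the test in either strain. In NOD, 1420659_at was at -0.47 ± 0.17 (adjusted p = 0.266) and 1425086_a_at at -0.44 ± 0.12 (adjusted p = 0.0735), both with separate arrays, and 1457773_at at -0.25. In B6g7 the same 3 were at -0.22, 0.07 and -0.01. Deviations from the group means correlated above 0.1 at every replicate number between the NOD Treg and Tconv arrays. With replicate number as a block, 1425086_a_at passed in NOD (adjusted p = 0.0256). It also passed with array weights (adjusted p = 0.0436) and quantile normalization (adjusted p = 0.022). In NOD 1420659_at passed with the arrays of that comparison alone (adjusted p = 0.0269) and with the actin covariate (-0.55, adjusted p = 0.0481).

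Cd48, the lipid-anchored ligand of CD2 and CD244, gave 10.70, 10.21 and 10.37 in NOD Treg against 10.58, 10.16 and 10.15 in NOD Tconv. In B6g7 it gave 11.05, 10.48 and 10.47 in Treg against 10.09, 10.11 and 9.30 in Tconv. The NOD arrays overlapped and the B6g7 arrays did not, with the low Tconv value in replicate 3. Treg minus Tconv was 0.13 ± 0.23 in NOD (adjusted p = 0.954) and 0.84 ± 0.23 in B6g7 (adjusted p = 0.0846). The B6g7 value passed with quantile normalization (adjusted p = 0.0234) and with the actin covariate (0.78, adjusted p = 0.00142). The strains' changes differed by -0.71 ± 0.33 (unadjusted p = 0.0513, adjusted p = 0.962), so no difference between strains was shown. Cd2, the gene of its partner receptor on T cells, was at 0.43 ± 0.24 in NOD (adjusted p = 0.617) and 0.81 ± 0.24 in B6g7 (adjusted p = 0.112).

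Cd84, a self-binding receptor coupled to SAP, had 9.01, 9.0 and 8.85 in NOD Treg against 8.61, 9.27 and 9.61 in NOD Tconv by 1422875_at. In B6g7 that probe set had 9.0, 9.26 and 9.35 in Treg against 9.21, 9.59 and 9.62 in Tconv, and the groups overlapped in both strains. Treg minus Tconv was -0.21 in NOD and -0.27 in B6g7 by this probe set and none passed. The other probe set, 1446505_at, lay between 8.61 and 9.33 over the 12 arrays, with changes of 0.00 and -0.04. The difference between the 2 Cd84 probe sets was lowest in the array numbered 1 of every group, at 0.02 in NOD Treg, -0.41 in NOD Tconv, -0.06 in B6g7 Treg and -0.13 in Tconv of B6g7. In the other arrays it lay between 0.21 and 1.0. Of these 4 arrays 3 also had the lowest actin 3' minus 5' difference of their group, and whether the one bears on the other was not tested. Without the 4 arrays numbered 1, 1422875_at was lower in Treg averaged over strains (-0.41, adjusted p = 0.0356).

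Ly9, which encodes CD229, another self-binding family member, was the most even of the receptors that lay well above the 25th percentile. It had 9.33, 9.35 and 9.58 in NOD Treg against 9.60, 9.57 and 9.60 in NOD Tconv, and 9.55, 9.65 and 9.66 in B6g7 Treg against 9.70, 9.59 and 9.49 in B6g7 Tconv. The 12 values spanned 0.37 log2 units. The lowest 2 were NOD Treg arrays, and NOD minus B6g7 in Treg was -0.20 (adjusted p = 0.474).

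Slamf7, a receptor of NK cells, plasma cells and activated lymphocytes, had group means between 5.79 and 5.93, just above the dim range. Its 12 arrays lay between 5.66 and 5.98, and no change passed the test. At this signal a change in Slamf7 RNA may not be detectable.

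Sh2d1a, the gene of SAP itself, was measured at 7.68, 7.26 and 7.57 in NOD Treg against 7.83, 7.59 and 7.80 in NOD Tconv. In B6g7 it had 7.84, 7.63 and 7.17 in Treg against 7.95, 8.06 and 7.37 in Tconv. The groups overlapped in both strains. Treg minus Tconv was -0.24 in NOD (95% confidence interval -0.68 to 0.19) and -0.25 in B6g7 (-0.68 to 0.19). Averaged over the strains it was -0.24 (-0.55 to 0.06), so a loss of more than 0.55 lies outside the interval and no change lies within it.

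No member passed the test of whether its Treg change differed between the strains. Of the 12 probe sets 0 passed the limma test of the difference, against 0.0933% of all, and 1 had an unadjusted p under 0.05. This was Slamf6 1425086_a_at, at -0.51 ± 0.16 (unadjusted p = 0.00929, adjusted p = 0.962). Slamf1 was at -0.30 ± 0.18 by 1425570_at and -0.23 ± 0.17 by 1425571_at (adjusted p = 0.962 each).

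Genes of SAP signalling were compared in the same way, by the brightest probe set of each gene. Of 19 measured partners and relatives 2 were higher in Treg of NOD, 2 in Treg of B6g7 and 0 lower in either. Over all 18193 genes read by their brightest probe set, 4.38% were called in NOD and 4.55% in B6g7, in either direction. Gata3, the transcription factor of type 2 helper T cells that SAP and Fyn signalling raises, was higher in both (NOD 0.51 ± 0.12, adjusted p = 0.0437, and B6g7 0.94 ± 0.12, adjusted p = 0.000628). Inpp5d, which encodes the phosphatase SHIP1, was higher in NOD Treg (0.50 ± 0.12, adjusted p = 0.0476) and was at 0.27 in B6g7 (adjusted p = 0.418). Rasa1, a Ras GTPase-activating protein, was higher in B6g7 Treg (0.56 ± 0.13, adjusted p = 0.0351) and was at 0.41 in NOD (adjusted p = 0.161). For neither gene was a difference of the changes between the strains shown (adjusted p = 0.962 each). Fyn, the kinase that SAP recruits, was at 0.05 in NOD and 0.09 in B6g7, and Prkcq, the kinase PKC-theta that acts downstream of it, at -0.19 and 0.04, without a call. The median change of the list was 0.03 in NOD and 0.09 in B6g7, and 0 of the 19 were called between the strains, against 3.33% of all genes in Treg and 3.05% in Tconv. The other family members Cd244a, Slamf8 and Slamf9 were measured and none was called in any comparison. Cd244a and Slamf8 had low group means, between 5.50 and 6.09, so a change in their RNA may not be detectable.

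Among 8 genes of programmes that depend on SAP, Treg had 2 higher and 1 lower than Tconv in NOD, and 2 higher and 0 lower in B6g7, against the same 4.38% and 4.55% of all genes called. Bcl6, the defining transcription factor of follicular helper T cells, was higher in NOD Treg (0.73 ± 0.13, adjusted p = 0.00663) and was at 0.31 in B6g7 (adjusted p = 0.35). Pdcd1, which encodes the inhibitory receptor PD-1, was higher in Treg of both strains (NOD 0.59, adjusted p = 0.00448, and B6g7 0.44, adjusted p = 0.0282). Its group means were low, between 5.52 and 6.39. Cxcr5, the receptor that guides cells into follicles, was higher in B6g7 Treg (0.64, adjusted p = 0.00421). In NOD it was at 0.30 (adjusted p = 0.276), and no difference of the changes between the strains was shown (adjusted p = 0.962). Its group means were also low, between 5.31 and 5.96. Il21, the follicular helper cytokine, fell in Treg of NOD relative to Tconv (-1.89 ± 0.23, adjusted p = 0.00029) and was at -0.10 in B6g7 (adjusted p = 0.938). The difference of those Il21 changes was -1.79 ± 0.32 and missed the threshold (adjusted p = 0.094). Il21 was higher in NOD Tconv than in B6g7 Tconv (1.77, adjusted p = 0.000491), and Pdcd1 in NOD Treg than in B6g7 Treg (0.43, adjusted p = 0.0342). Of the 5 measured CD2 family and adaptor genes none was called between Treg and Tconv in either strain.

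**Figure D4:**
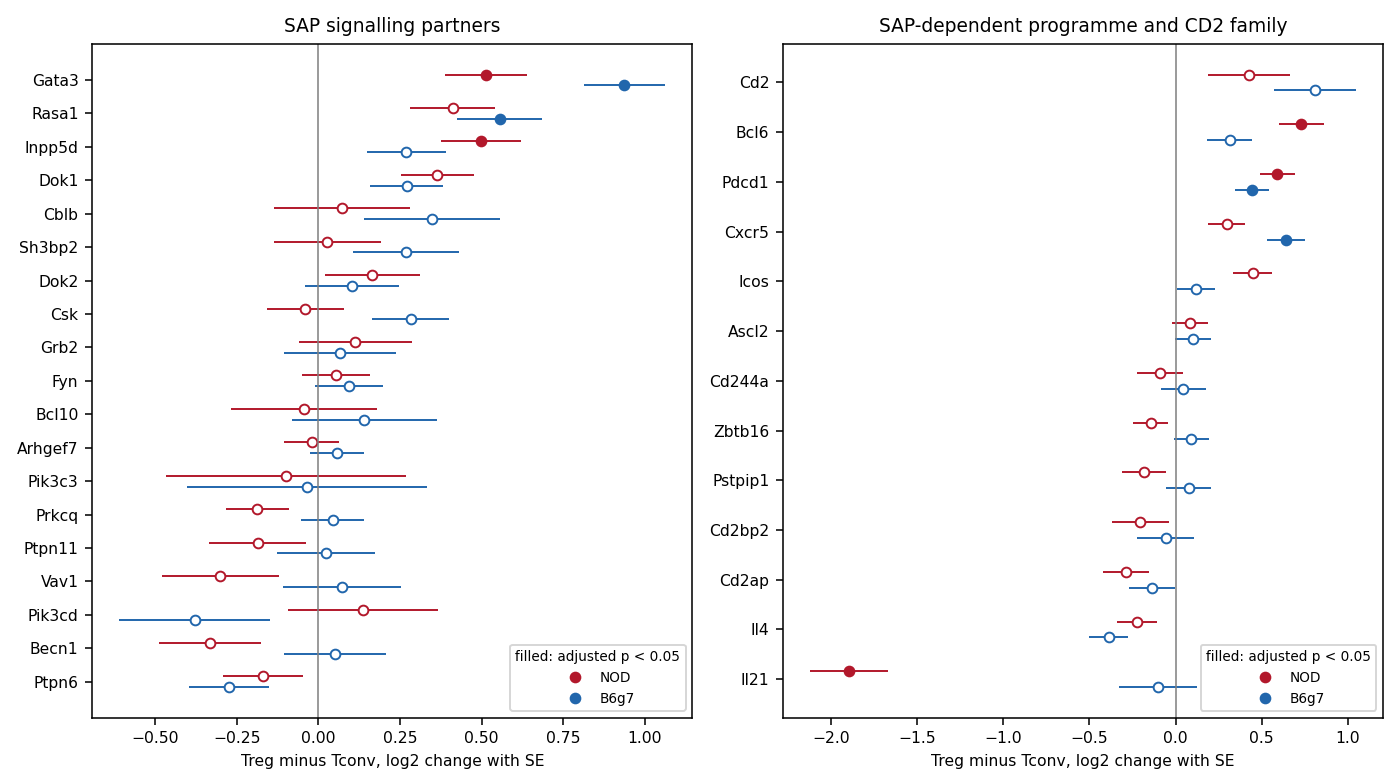
Treg minus Tconv change in log2 intensity, with its standard error, of the SAP signalling partners, the genes of SAP-dependent programmes and the CD2 family, in NOD and in B6g7, filled where the adjusted p was under 0.05. Gata3 and Pdcd1 are filled in both strains, and Il21 in NOD stands apart at -1.89.

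The genes whose pattern over the 12 arrays was most like that of Slamf1 1425570_at, among 15371 candidate genes, were Gabarapl1 (Pearson r = 0.986), Ccdc50 (r = 0.981) and Niban1 (r = 0.975). Gabarapl1 averaged 10.40 ± 0.18 in NOD Treg against 9.11 ± 0.08 in NOD Tconv, and 10.19 ± 0.19 in B6g7 Treg against 8.55 ± 0.09 in B6g7 Tconv (SD, n = 3 each). For Slamf6 1420659_at they were Kansl1l (r = 0.966), Cap2 (r = 0.936) and Sox13 (r = 0.931). Kansl1l averaged 7.90 ± 0.04 in NOD Treg against 7.54 ± 0.08 in B6g7 Treg, and 8.03 ± 0.06 in NOD Tconv against 7.66 ± 0.11 in B6g7 Tconv. These correlations describe 12 arrays that fall into 4 groups and share their group differences.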

How the data were processed

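Gene expression in splenic Treg and Tconv cells was measured on 12 single-colour Affymetrix arrays, 3 per group. RNA was amplified in repeated rounds before labelling, per the labels' protocols. The authors deposited 1 RMA-normalized intensity per probe set and array, per the submitters' processing notes and the series text. The values lie on a linear scale, from 5.78 to 27207. No version of RMA and no detection calls were given. The number of arrays limits the precision, as does signal near the dim level. Here log2 of the deposited intensity was taken with no further normalization, offset or filter.

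The table holds 45101 probe sets, 64 of them controls, which were left out. The platform annotation names 1 gene for 34945 of the 45037 tested, several for 932 and none for 9160. RefSeq (GRCm38.p6) matched 34741 by Entrez ID and changed 0 symbols. Outside the members, a gene was represented by its brightest probe set. A group mean under 5.28, the 25th percentile, is called dim.

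A model with 4 group means was fitted to all 12 arrays in limma 3.58.1 (R 4.3.3, lmFit and eBayes), with Benjamini-Hochberg adjustment over all 45037 probe sets and calls at an adjusted p under 0.05. With 3 arrays against 3, permutation gives no p under 0.1, so single changes were tested in limma alone. Differences between probe sets of 1 gene were tested with an exact permutation test over arrays. The fit was tested on simulated data. Per the series text, each group's 3 pools are independent.

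Replicate numbers were checked by correlating deviations from group means. All 3 pairs were above 0.1 for NOD Treg and Tconv (0.56, 0.31 and 0.40) and for NOD and B6g7 Treg (0.67, 0.34 and 0.30), but not for B6g7 Treg and Tconv (0.52, -0.08 and 0.50) or NOD and B6g7 Tconv (0.44, -0.04 and 0.20). Alternatives were a replicate block, quantile normalization, array weights, an offset, a dim filter, the arrays of a comparison alone, the actin difference as covariate, and leaving out arrays. Pairs of probe sets were also adjusted without Slamf6, a choice made after seeing the data. All member probe sets are named; of other lists, called genes up to the 4 of smallest p and a few preset genes are. The members and lists were chosen with earlier results of these data known.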

Additional observations from a re-analysis of the deposited data

How the results depend on the processing

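Of 1728 refits of single member values 1687 kept their direction if called and their side of the threshold, 13 lost a call, 28 gained one and 0 called values reversed. The 14 member calls all held under the replicate block, array weights, the offset, the dim filter and the actin covariate, and 13 of 14 held under quantile normalization. With the 4 arrays numbered 1 left out, 13 of 14 held and the member count for NOD against B6g7 in Tconv fell to 1; without single arrays that count ranged from 1 to 3, with 1 without B6g7 Tconv replicate 1 or 2 and 3 without NOD Treg replicate 1. The NOD against B6g7 count in Treg was 4 with array weights and 4 with the actin covariate. The averaged Treg against Tconv count was 4 with the replicate block, array weights or the actin covariate, and the blocked fit changed no other member count by over 1.5 times. Over all probe sets, calls numbered as follows: Treg against Tconv in NOD 1443, with the block 2362 and the actin covariate 2225; in B6g7 1519, with its own arrays alone 976, the block 2286, weights 3460 and the covariate 2496; averaged 2632, with weights 4796 and the covariate 4138. NOD against B6g7 in Treg had 1468, with its own arrays alone 976, weights 2361 and the covariate 2340; in Tconv 1333, with the block 2124, weights 2181 and the covariate 2077; averaged 2475, with weights 3920 and the covariate 3880. The difference of changes had 42, with the block 89, weights 79, the covariate 71 and the dim filter 26. The cause of these shifts was not tested. The pairs of probe sets were tested again under 14 settings (the offset, quantile normalization and each array left out). Each time 3 pairs passed between Treg and Tconv. Between strains 4 to 5 passed. That count includes Slamf6 pairs, whose disagreement was known when the genes were chosen, so it is given as a description. Deviations did not correlate at every replicate number between the B6g7 groups or between the Tconv groups. With the block Cd48 passed between Treg and Tconv in B6g7 (0.84, adjusted p = 0.00373). Slamf1 1425570_at passed with it between strains in Tconv (0.50, adjusted p = 0.0102). Averaged over strains, Treg against Tconv passed for Cd48 with the block (0.48), quantile normalization (0.49) and the actin covariate (0.55), for Slamf6 1420659_at with the block (-0.34), array weights (-0.31), the covariate (-0.37) and without B6g7 Treg replicate 3 (-0.44), and for 1425086_a_at with array weights (-0.25). Signal limits Slamf7 and Slamf1 1425569_a_at, whose levels lie just above the dim range.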
